A study of Mus musculus with 8 samples.

Results

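Coding exon windows away from promoters were the 250 bp windows whose centre lay in protein-coding sequence (CDS) of the GENCODE M1 annotation and over 1000 bp from the nearest transcription start site (TSS). They numbered 4252 of the 54235 windows in the 4 deposited tables (7.84%) and fell in 1738 genes. The rule used position alone and no methylation value. DNA methylation had been measured by bisulphite sequencing of captured regions (SureSelectXT Methyl-Seq) in E14Tg2a mouse embryonic stem cells (ESCs). There were 8 samples in 4 groups of 2 from independent experiments: YAP KD T4 and YAP KD T0, transfected with siRNA against YAP, and CTR KD T4 and CTR KD T0, transfected with a control siRNA. YAP is the transcriptional co-activator that the Hippo pathway restrains. T0 cells were undifferentiated and T4 cells had spent 4 days as serum-free embryoid bodies (SFEBs), a culture that leads towards neuroectoderm. The knockdown was transient, and according to the study YAP had returned by T4, so the YAP KD T4 group models an earlier loss of YAP. The deposited tables hold, for each window and comparison, a p-value, a q-value and a methylation difference in percentage points. Values of single samples, methylation levels and read depths are not in them, so spread between replicates cannot be shown and every test compares these libraries.

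DNA methylation in mammals sits mostly on the cytosine of CpG dinucleotides. DNMT3A and DNMT3B, helped in early embryonic cells by DNMT3L, place new methyl groups, DNMT1 copies them at replication, and TET enzymes oxidise them. CpG-rich promoters are usually unmethylated, whereas the bodies of transcribed genes, exons included, usually carry methylation that is laid down in the wake of RNA polymerase through marks on histone H3. ESCs in the naive state gain methylation over much of the genome when they leave pluripotency.

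The sequences that carry the largest changes were drawn from the mm9 genome on its plus strand, 5′ to 3′, with each CpG in capitals. Only windows lying wholly in CDS and found once in the genome were considered. Hsp90ab1 had the largest gain in YAP KD cells and Trim71 the largest in CTR KD cells among such windows. Kcnj12 had the largest loss in YAP KD cells and Odz3 the largest in CTR KD cells. Mmgt2 had the largest difference between the YAP KD and CTR KD changes among windows lost in YAP KD but not in CTR KD cells.
Hsp90ab1 (chr17:45706501-45706750): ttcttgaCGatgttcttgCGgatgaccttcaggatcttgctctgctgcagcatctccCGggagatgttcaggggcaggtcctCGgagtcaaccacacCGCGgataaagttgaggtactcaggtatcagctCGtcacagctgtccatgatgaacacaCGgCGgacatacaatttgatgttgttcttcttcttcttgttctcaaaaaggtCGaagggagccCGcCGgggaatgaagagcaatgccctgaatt
Trim71 (chr9:114422001-114422250): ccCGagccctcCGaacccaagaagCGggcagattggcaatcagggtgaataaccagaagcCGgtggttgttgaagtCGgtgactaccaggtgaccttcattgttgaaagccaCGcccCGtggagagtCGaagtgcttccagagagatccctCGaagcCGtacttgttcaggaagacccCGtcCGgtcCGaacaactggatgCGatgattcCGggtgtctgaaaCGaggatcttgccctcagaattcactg
Kcnj12 (chr11:60882751-60883000): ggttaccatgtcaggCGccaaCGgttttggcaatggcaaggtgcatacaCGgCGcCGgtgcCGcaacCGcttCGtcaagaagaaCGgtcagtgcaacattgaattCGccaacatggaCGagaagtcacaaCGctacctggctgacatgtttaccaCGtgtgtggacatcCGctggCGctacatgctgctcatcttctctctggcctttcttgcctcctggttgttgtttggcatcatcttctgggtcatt
Odz3 (chr8:49361876-49362125): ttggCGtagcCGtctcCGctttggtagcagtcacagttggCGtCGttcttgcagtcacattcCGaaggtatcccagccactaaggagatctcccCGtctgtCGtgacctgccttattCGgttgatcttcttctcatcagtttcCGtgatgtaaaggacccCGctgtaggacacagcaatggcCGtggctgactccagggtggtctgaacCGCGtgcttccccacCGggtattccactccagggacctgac
Mmgt2 (chr11:62478376-62478625): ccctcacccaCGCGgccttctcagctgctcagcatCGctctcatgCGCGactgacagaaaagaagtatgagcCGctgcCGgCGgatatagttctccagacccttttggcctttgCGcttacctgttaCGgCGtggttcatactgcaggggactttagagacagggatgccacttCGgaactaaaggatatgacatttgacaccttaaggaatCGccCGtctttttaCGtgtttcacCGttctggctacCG
The genes lie on the minus strand at Hsp90ab1, Trim71 and Odz3 and on the plus strand at Kcnj12 and Mmgt2. The windows hold between 12 CpGs at Hsp90ab1 and 17 at Mmgt2. In all exon windows the median was 16 CpGs, with a range of 5 to 47, and the median GC content was 61.2%.

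The exon windows lay a median of 3762 bp from a TSS. Of the 4252, 2288 (53.8%) lay wholly in CDS, and the others also held intron or UTR bases. A gene had a median of 2 windows, and 711 genes had 1. Neighbouring windows overlapped in 2010 cases, so windows of a gene are not independent. In 109 windows the sequence was repeated in the genome, and 20 windows lay in CDS of more than 1 gene name. The 4 comparisons shared 2892 of the windows.

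In YAP KD cells, differentiation was accompanied by more losses than gains in coding exons. Of 3311 exon windows tested, 85 gained methylation and 198 lost it. Such a window is a differentially methylated region (DMR): in the authors' deposited table its q did not exceed 0.05 and its T4 minus T0 difference was over 10 points in size. The sign was read from the study's own account of gains and losses. The shares were 2.57% gained and 5.98% lost, against 0.505% and 3.35% over all 42770 windows of the table. The gains were at 62 genes and the losses at 135, of 1439 tested, and Fat1, a giant atypical cadherin, had both. Most windows moved little: 75.2% lay within 5 points of 0, and the median was -0.68 points.

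The largest gains in YAP KD cells included cytoskeletal, chaperone and RNA-handling genes. Eml4, a microtubule-binding protein, gained 22.6 points (derived SE 1.40, q = 8.40e-56) in coding exon 23 of 24 on chromosome 17 (83876501 to 83876750). The derived SE is the size of the difference over the normal quantile that matches its deposited p-value. Myo10, a myosin of filopodia, gained 21.6 points (SE 2.59) in coding exon 27 of 41. The printed Hsp90ab1 window, in coding exon 6 of 10 of the constitutive cytosolic HSP90 gene, gained 20.1 points (SE 2.26). Tra2a, a splicing regulator, gained 19.6 points (SE 2.21). Further gains were at the deubiquitinase gene Otud3 with 18.1 points, Zfp598, a ubiquitin ligase that senses collided ribosomes, with 17.8 points, and the stem cell factor Sall4 with 17.5 points. Shmt2, the mitochondrial serine hydroxymethyltransferase, gained 17.1 points. The kinesin gene Kifc5b also gained 17.1 points, in repeated sequence.

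The largest losses in YAP KD cells were in genes of varied roles. H2-Eb1, a chain of the MHC class II molecule, lost the most, at -30.8 points (SE 1.90, q = 8.40e-56) in coding exon 2 of 6 on chromosome 17 (34446501 to 34446750). The inward rectifier potassium channel genes Kcnj12 and Kcnj4 had -28.7 and -23.1 points. Slc7a14, of the cationic amino acid transporter family, fell by 25.9 points. Arid2, a subunit of the PBAF chromatin remodelling complex, fell by 24.96 points (SE 3.28) in coding exon 15 of 21. Values between -24.0 and -23.2 points were found at Vsig10, an immunoglobulin domain gene, Ethe1, a mitochondrial sulphur dioxygenase, Nrip1, a nuclear receptor corepressor, and Flt3, a receptor kinase of blood progenitors. Gm5868 fell by 26.9 points in repeated sequence.

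In CTR KD cells gains and losses in coding exons were close in number. Of 3580 exon windows tested, 160 gained methylation (4.47%) and 146 lost it (4.08%). Over all 46579 windows of the table the shares were 0.958% gained and 2.21% lost. The gains were at 110 genes and the losses at 109, of 1531 tested, with no gene in both. The median was -0.31 points, and 76.6% of windows lay within 5 points of 0.

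Trim71, an RNA-binding ubiquitin ligase of stem cells and a target of the microRNA let-7, had the largest exon gain in CTR KD cells, 28.0 points (SE 1.59, q = 2.43e-66) in its last coding exon on chromosome 9 (114422001 to 114422250). Kdm2b, which brings a Polycomb complex to unmethylated CpGs, gained 24.3 points (SE 2.39). Plk3, a polo-like kinase, gained 23.7 points and the 14-3-3 gene Ywhag also 23.7 points. Nfatc4, a transcription factor switched on by calcineurin, gained 23.5 points (SE 2.78). The ribosomal protein genes Rpl31 and Rpl3 gained 22.9 and 22.6 points, the Rpl3 window in repeated sequence. Eml4 gained 22.01 points (SE 1.39) and Tra2a 21.7 points. Kifc5b, again in repeated sequence, gained 22.8 points.

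The largest exon loss in CTR KD cells was in the first coding exon of Zfp608, a zinc finger gene on chromosome 18 (55148001 to 55148250), at -27.5 points (SE 3.18). Ubr2, a ubiquitin ligase of the N-degron pathway, fell by 24.9 points. H2-Eb1 had -23.1 points (SE 2.05), Odz3, a teneurin gene of neuronal wiring, -21.5 points, and Kcnj12 -20.6 points. Sox6 and Pax3, transcription factors of neural and mesodermal lineages, had -19.8 points each. Serpinc1, the antithrombin gene, had -19.6 points, Klhl10, a Kelch gene of spermatids, -19.5 points, and Sorbs2, an adaptor of the actin cytoskeleton, -19.4 points.

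Among exon DMRs, gains made up 30.0% in YAP KD cells (exact Clopper-Pearson 95% interval 24.8 to 35.7) and 52.3% in CTR KD cells (46.5 to 58.0). The intervals cover counting error only, and overlapping windows make them too narrow. Over all windows gains made up 13.1% of DMRs in YAP KD and 30.2% in CTR KD cells. In introns away from promoters they made up 15.9% in YAP KD and 38.1% in CTR KD cells. The lower gain share in YAP KD cells was thus not particular to exons. With differences over 20 points the exon shares were 9.38% in YAP KD and 81.2% in CTR KD cells, from 32 exon windows in each. The all-window shares at that minimum are not given here. Overlapping windows of a gene were counted separately here. Among them were several CTR KD gains in the last coding exon of Trim71 and several YAP KD losses at Odz3.

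Gains were more frequent in coding exon windows than in introns, intergenic windows and windows near promoters, in both comparisons. In YAP KD cells, introns over 1000 bp from a TSS gained in 1.71% and lost in 9.07% of 3506 windows, and intergenic windows gained in 0.572% and lost in 8.68% of 5241. In CTR KD cells, introns gained in 3.39% and lost in 5.50% of 3781 windows, and intergenic windows gained in 1.05% and lost in 6.13% of 5629. Coding exon windows within 1000 bp of a TSS gained in 0.306% and lost in 1.88% of cases in YAP KD cells, and gained in 0.681% and lost in 1.43% in CTR KD cells. UTR exons away from promoters had shares near those of coding exons, with 12 gains and 20 losses of 448 in YAP KD cells and 21 gains and 13 losses of 485 in CTR KD cells. These differences between classes were not tested, since windows share libraries and overlap. At the distance threshold itself, coding exon windows up to 250 bp beyond it had 2 gains and 8 losses of 362 in YAP KD cells and 6 gains and 7 losses of 395 in CTR KD cells. Those up to 250 bp inside it had 1 gain and 17 losses of 473 in YAP KD cells and 5 gains and 17 losses of 501 in CTR KD cells.

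**Figure D1:**
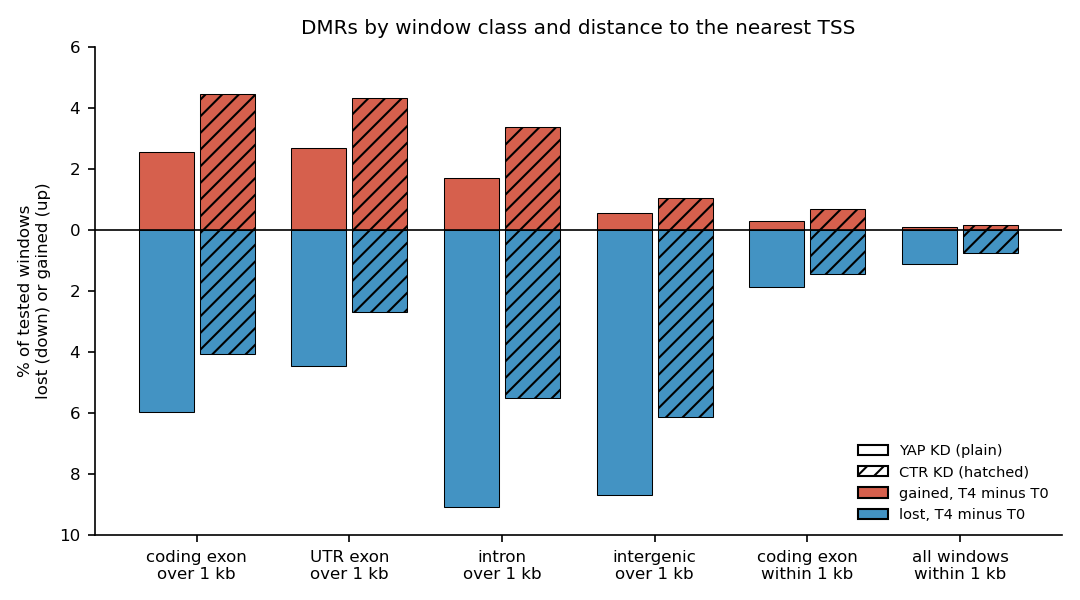
Share of tested windows, in percent, that gained (up) or lost (down) methylation between T4 and T0 in YAP KD cells (plain bars) and CTR KD cells (hatched bars), by window class and distance to the nearest TSS. Coding exons over 1 kb from a TSS gained in 2.57% of windows in YAP KD and 4.47% in CTR KD cells, whereas intergenic windows were mostly losses in both.

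The same contrast was looked at inside genes that had both kinds of window. In YAP KD cells 488 genes had tested windows in coding exons and in introns away from a TSS. Their exons gained in 2.35% and lost in 5.48% of 1150 windows, and their introns gained in 1.97% and lost in 7.96% of 1068 windows. In CTR KD cells 519 such genes gained in 4.01% and lost in 3.45% of 1248 exon windows, and gained in 4.36% and lost in 4.18% of 1171 intron windows. Within shared genes the exon and intron shares of gains were thus nearer to each other than over all windows. In CTR KD cells the intron share was the higher of them, so the higher exon share seen over all windows was not seen within these genes. Of 34 genes with an exon gain in CTR KD cells 20 also had an intron gain, and of 42 genes with an exon loss in YAP KD cells 17 also had an intron loss. Opposite calls in exon and intron of a gene were found at 3 genes in YAP KD cells and at 0 in CTR KD cells.

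DMRs were spread unevenly over exons. Internal coding exons gained in 3.86% and lost in 8.50% of 1271 windows in YAP KD cells, and gained in 6.69% and lost in 4.75% of 1346 windows in CTR KD cells. First coding exons had 0 gains and 18 losses among 454 windows in YAP KD cells, and 9 gains and 22 losses among 500 windows in CTR KD cells. Last coding exons had 28 gains and 51 losses of 1048 in YAP KD cells, and 48 gains and 43 losses of 1145 in CTR KD cells. In genes with 1 coding exon there were 8 gains and 21 losses of 538 in YAP KD cells, and 13 gains and 17 losses of 589 in CTR KD cells. Losses in YAP KD cells were most frequent in genes with over 20 coding exons, at 13.2% of 395 windows, against 6.59% of 410 such windows in CTR KD cells.

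DMRs were more frequent in CpG-poor exon windows. Windows with 5 to 12 CpGs gained in 5.83% and lost in 10.7% of cases in YAP KD cells, and gained in 9.65% and lost in 8.31% in CTR KD cells. Windows with 21 or more CpGs had 1 gain and 16 losses among 857 in YAP KD cells, and 5 gains and 10 losses among 980 in CTR KD cells. By GC content, windows up to 55% lost methylation in 14.7% of cases in YAP KD and 10.7% in CTR KD cells, and windows over 65% in 0.713% in YAP KD and 0.599% in CTR KD cells. The median derived SE also moved with CpG number. In YAP KD cells it was 1.95 points at 5 to 12 CpGs and 0.824 points at 21 or more, and its part in the shares was not tested.

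**Figure D2:**
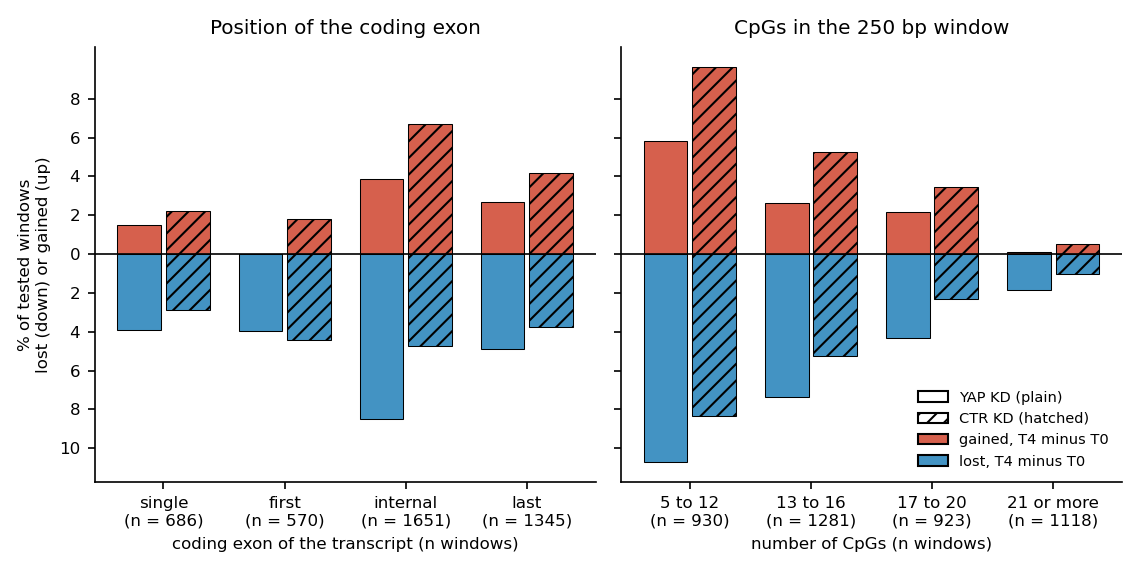
Share of tested coding exon windows, in percent, that gained (up) or lost (down) methylation between T4 and T0 in YAP KD cells (plain bars) and CTR KD cells (hatched bars), by the position of the coding exon in its transcript (left) and by the number of CpGs in the window (right). First coding exons had no gain in YAP KD cells, and windows with 21 or more CpGs had few DMRs in either direction.

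The balance of gains and losses varied with distance from a TSS. Between 5 and 20 kb from a TSS, 42 windows gained and 52 lost methylation of 976 in YAP KD cells, and 71 gained and 33 lost it of 1072 in CTR KD cells, a gain share of 44.7% in YAP KD and 68.3% in CTR KD cells. Between 20 and 100 kb, 6 gained and 44 lost of 357 in YAP KD cells, and 13 gained and 28 lost of 374 in CTR KD cells. By chromosome, the gain share of exon DMRs was 7.14% in YAP KD and 50.0% in CTR KD cells on chromosome 1, from 14 and 20 windows. On chromosome 10 it was 46.7% in YAP KD and 87.0% in CTR KD cells. On chromosome 18, where the clustered protocadherin genes hold many exon windows, losses prevailed in both, with 3 gains and 19 losses in YAP KD cells and 2 gains and 11 losses in CTR KD cells. These chromosomes are examples, given without the all-window shares of the same chromosomes. Differences between chromosomes were not tested.

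By gene group, the listed ribosomal protein and RNA-binding genes had exon gains and no loss, and the listed channel genes had losses and no gain. Over all genes with exon windows, gains were found at 4.31% of all exon genes in YAP KD cells and 7.18% in CTR KD cells, and losses at 9.38% in YAP KD and 7.12% in CTR KD cells, and the window medians were -0.68 points in YAP KD and -0.31 points in CTR KD cells. Cytosolic ribosomal protein genes had exon gains at 3 of 12 genes in YAP KD and at 4 of 11 in CTR KD cells, with no loss in either, and their windows had a median of 4.08 points in YAP KD and 8.45 points in CTR KD cells. Of their 16 windows 9 were in repeated sequence. The gains at Rpl3, Rpl35a and Rps7 were in repeated sequence, and those at Rpl31 and Rpl7l1 were in single-copy windows. Rpl7l1, an L7-like gene that gained in YAP KD cells, was in the list by its name. The listed splicing factors and other RNA-binding proteins had gains at 4 of 17 genes in YAP KD and at 5 of 15 in CTR KD cells, with no loss. They included Trim71, Srsf5, an SR splicing factor that gained 14.3 points in CTR KD cells and changed by 8.96 points in YAP KD cells, and Pabpc4, a poly(A)-binding protein that gained 10.2 points in YAP KD and 15.4 points in CTR KD cells in repeated sequence. The RNA-binding list's median was 2.90 points in YAP KD and 3.0 points in CTR KD cells. Trim71 alone held 7 of the 36 windows tested in each. It held 6 of the 10 gained windows in YAP KD and 7 of the 13 in CTR KD cells. The RNA-binding list was not complete. Outside it the splicing gene Srrm2 lost methylation in YAP KD cells, with -11.3 points at a window that had 2.99 points in CTR KD cells. Tra2a, also outside it, gained in both.

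Heat shock, chaperonin and 14-3-3 names had gains at 3 of 14 genes and a loss at 1 in YAP KD cells, and gains at 4 of 13 and a loss at 1 in CTR KD cells. Hsp90ab1 and Ywhag gained in both. The list's median was nonetheless below 0, at -1.70 points in YAP KD and -0.91 points in CTR KD cells. Hspg2, 1 of the CTR KD gains, which encodes the matrix proteoglycan perlecan, was caught by its name alone and was chosen for mention after its value was seen. Hspa12a lost 16.2 points in CTR KD cells. Of 3 translation factor genes Eef2, the ribosomal translocase, gained 16.6 points in CTR KD cells, and it changed by 7.81 points in YAP KD cells, under the 10-point minimum. The glycolytic list had 1 tested gene, Gapdh, which gained 11.9 points in YAP KD and 18.1 points in CTR KD cells in a window with a second copy in the genome. Among naive pluripotency names, 2 of 7 genes gained in YAP KD and 3 of 8 in CTR KD cells, with no loss. These were Zfp42 (Rex1) and Sall4 in both, and in CTR KD cells Tcf3, a symbol that in this annotation stands for the E2A gene and not for Tcf7l1. Zinc finger genes named Zfp had gains at 3 and a loss at 1 of 35 genes in YAP KD cells, and gains at 5 and losses at 2 of 38 in CTR KD cells.

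Homeobox, Sox, Fox and T-box developmental factors, in a list that also held Pax, Zic and Gata genes, had no exon gain. They lost methylation at 10 of 89 genes in YAP KD and at 9 of 91 in CTR KD cells. These shares, 11.2% and 9.89%, were near those of all exon genes. The list's median was -0.91 points in YAP KD and -0.69 points in CTR KD cells. Some homeobox genes were left out of the list, so the shares are of the list only. Among those left out, Barx2 and Evx1 lost methylation in YAP KD cells, Lmx1a and Lmx1b in CTR KD cells and Dux in both. Pax3 had -22.3 points in YAP KD and -16.6 points in CTR KD cells in coding exon 2 of 9. Its coding exon 3 had -20.7 points in YAP KD and -19.8 points in CTR KD cells. Zic4, a hindbrain zinc finger factor, had -21.9 points in YAP KD and -12.99 points in CTR KD cells. Pax1, a sclerotome factor, had -21.2 points in YAP KD and -10.9 points in CTR KD cells. Voltage-gated and potassium channel genes lost methylation at 7 of 32 genes in YAP KD and at 9 of 37 in CTR KD cells, with no gain. Beside Kcnj12 and Kcnj4 they included Kcnu1, a sperm potassium channel, with -20.5 points in YAP KD and -16.9 points in CTR KD cells.

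Clustered protocadherins are cell surface molecules whose variable first exons stand in tandem. They lost methylation at 5 of 21 annotated gene names in YAP KD and at 2 of 21 in CTR KD cells. The list's median was -3.33 points in YAP KD and -1.99 points in CTR KD cells. The name Pcdha11 pooled separate first coding exons, with lost windows starting at 37091126 in YAP KD and 37171626 in CTR KD cells on chromosome 18. The counts are thus of names and not of single protocadherins. Pcdhb15 had -17.9 points in YAP KD and -16.1 points in CTR KD cells. Of their 128 windows 27 were in repeated sequence. Classical, desmosomal and unclustered cadherins lost methylation at 5 and gained it at 1 of 14 genes in YAP KD cells, and lost it at 4 of 13 with no gain in CTR KD cells. Pcdh17, a protocadherin of neurons, had -14.7 points in YAP KD and -17.5 points in CTR KD cells. Among the listed Wnt genes Prickle1 was the only gene of 15 with a loss in YAP KD cells. Fzd1, a Wnt receptor, was the only one of 17 in CTR KD cells (-13.2 points, at a window not tested in YAP KD cells). None of the listed genes gained. Dact1, a Wnt regulator outside the list, lost methylation at 1 of 4 windows in CTR KD cells. The study drew attention to cadherin and Wnt genes in these samples, so these counts are not independent evidence. Nor are those of the other lists, which were chosen with earlier results of these data known.

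The remaining lists had few calls. Chromatin regulators had a gain at 1 and losses at 3 of 14 genes in YAP KD cells, and gains at 2 and losses at 2 of 14 in CTR KD cells. Matrix genes lost methylation at 3 of 10 in YAP KD cells, among them Col15a1 (-15.4 points) and Ncan (-12.3 points), and had 1 gain and 1 loss of 7 in CTR KD cells. In the Hippo list of 6 genes Wwc1 (Kibra), an upstream activator of the pathway, gained 13.98 points in YAP KD and 13.7 points in CTR KD cells. Imprinted genes, replication histones and olfactory, vomeronasal or trace amine receptor genes had 5, 2 and 1 genes with exon windows and no gain or loss, and germline genes had no exon window.

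The question of how YAP knockdown altered differentiation was next put to each exon window. In 2953 windows in both differentiation tables the changes tracked each other, with a Pearson r of 0.767 and a Spearman coefficient of 0.690 across windows, which share libraries and overlap. The sign was the same in 73.9%. The YAP KD change minus the CTR KD change had a median of -0.47 points. Gains in both were found at 56 windows and losses in both at 77. At 93 windows a loss was called in YAP KD but not in CTR KD cells, and at 79 a gain in CTR KD but not in YAP KD cells. The opposite classes were smaller, with gain in YAP KD only at 14 windows and loss in CTR KD only at 44. The same classes over all windows are not given here, so these counts do not set exon windows apart from others. A call in one group and not in the other does not show a difference, so the changes themselves were compared.

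A z test on both changes, with their derived SEs and Benjamini-Hochberg adjustment over all 38551 windows to a threshold of 0.05, called 84 of 2951 exon windows (2.85%). The change was lower in YAP KD cells at 74 windows of 54 genes and higher at 10 windows of 10 genes. Over all windows 1.08% were lower and 0.205% higher in YAP KD cells. Introns away from promoters had 111 lower and 9 higher of 3094, and coding exon windows within 1000 bp of a TSS had 29 lower and 8 higher of 4720. Only 16 of the 93 windows lost in YAP KD but not in CTR KD cells passed, and 27 of the 79 gained in CTR KD but not in YAP KD cells. The test is a normal approximation that rests on the deposited p-values, and how far these account for spread between the 2 samples of a group is not given in the sources used here, so no p-value from it is printed for single windows. With the SEs doubled no exon window passed, while 42 had an unadjusted p under 0.05.

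**Figure D3:**
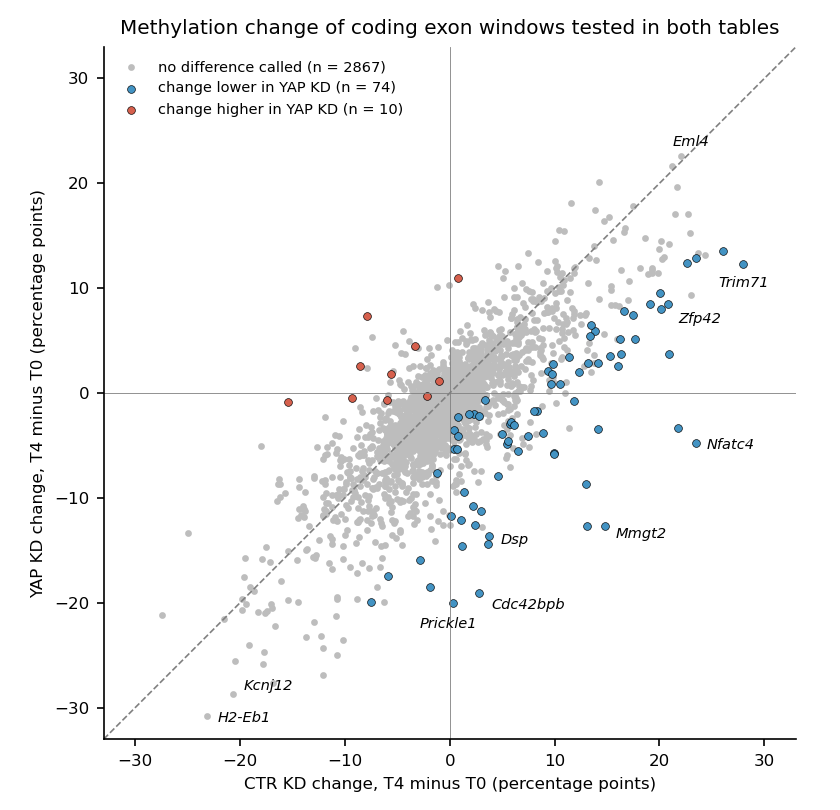
Methylation change between T4 and T0, in percentage points, in YAP KD cells (vertical axis) against CTR KD cells (horizontal axis), 1 point per coding exon window with a z test, in blue for the 74 windows whose change was lower in YAP KD cells, red for the 10 where it was higher and grey where no difference was called. The dashed line marks equal change, Eml4 lies close to it, and Nfatc4 and Mmgt2 lie far below it.

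At several windows methylation was gained in CTR KD cells and not in YAP KD cells. Nfatc4 had -4.78 points (SE 2.71, q = 0.221) in YAP KD cells and 23.5 points (SE 2.78, q = 3.02e-15) in CTR KD cells, within coding exon 5 of 10 on chromosome 14 (56448626 to 56448875). Its overlapping neighbour had -3.29 points in YAP KD and 21.8 points in CTR KD cells. Clk2, a kinase of SR splicing factors, had -3.45 points in YAP KD and 14.2 points in CTR KD cells. 2510012J08Rik (Cactin), a protein linked to splicing, had in its last coding exon 3.73 points in YAP KD and 20.9 points in CTR KD cells. This holds for that window and not for the whole gene: of the gene's 4 windows, 2 were gained in YAP KD and 4 in CTR KD cells. Zmym4, an MYM-type zinc finger gene, had in coding exon 28 of 30 2.58 points in YAP KD and 16.01 points in CTR KD cells. The YAP KD minus CTR KD differences of these changes passed the z test, at -28.3 points for Nfatc4 (SE 3.89), -17.6 for Clk2 (SE 4.77), -17.2 for 2510012J08Rik (SE 3.75) and -13.4 for Zmym4 (SE 2.57).

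Elsewhere the loss was in YAP KD cells. Cdc42bpb, a kinase downstream of Cdc42, had -19.0 points (SE 2.66, q = 3.69e-11) in YAP KD cells and 2.82 points (SE 2.99) in CTR KD cells, within coding exon 13 of 37 on chromosome 12 (112559126 to 112559375). Prickle1, a planar cell polarity gene, had in its last coding exon -20.1 points in YAP KD and 0.27 points in CTR KD cells. Dsp, the desmosomal plaque protein desmoplakin, had -14.4 points in YAP KD and 3.64 points in CTR KD cells. Add1, an adducin of the membrane skeleton, had -18.5 points in YAP KD and -1.87 points in CTR KD cells. Tmem151b, a membrane protein gene, had -13.6 points in YAP KD and 3.78 points in CTR KD cells. The differences passed the z test, at -21.9 points for Cdc42bpb (SE 3.996), -20.3 for Prickle1 (SE 4.92), -18.0 for Dsp (SE 4.92), -16.6 for Add1 (SE 4.13) and -17.4 for Tmem151b (SE 4.58).

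Mmgt2, a membrane magnesium transporter gene, held the only exon windows lost in YAP KD and gained in CTR KD cells. In its single coding exon on chromosome 11 the overlapping windows at 62478376 and 62478501 had -12.6 and -12.7 points in YAP KD cells, against 13.1 and 14.8 points in CTR KD cells. The differences of the changes were -25.7 and -27.5 points, and both passed the z test. At Myst3 (Kat6a), a histone acetyltransferase gene, the first coding exon had -8.69 points in YAP KD and 12.98 points in CTR KD cells, and coding exon 2 of 16 had -17.4 points in YAP KD and -5.86 points in CTR KD cells. Both differences passed the z test.

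In genes with several DMR windows the shift could be followed along the exon. Trim71 gained methylation at each of 7 overlapping windows of its last coding exon, by 9.57 to 14.5 points in YAP KD cells and by 19.3 to 28.0 points in CTR KD cells, all with q at or below 0.05. The windows share sequence and libraries and are not replicates. Of these windows, 6 were DMRs in YAP KD and 7 in CTR KD cells, and at 3 the changes differed by the z test. In the single coding exon of Zfp42, a marker of the naive state, 5 windows rose by 8.46 to 13.7 points in YAP KD cells and by 17.05 to 20.8 points in CTR KD cells, all with q at or below 0.05, and 2 differed. The window with the smallest difference there lay at the 5′ end in repeated sequence. Slc32a1, the vesicular GABA transporter, lost methylation at 9 windows, with values of -19.6 to -7.48 points in YAP KD cells and -12.5 to -6.68 points in CTR KD cells. There 8 were DMRs in YAP KD and 2 in CTR KD cells, yet no window differed by the z test.

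Fat1 had 13 windows tested in each differentiation table. In YAP KD cells 7 internal exon windows were lost and 1 in the last exon was gained, and in CTR KD cells 1 was lost. The largest loss, -19.9 points in YAP KD against -7.54 points in CTR KD cells, and an overlapping pair of windows further along the gene, at -4.58 and -4.14 points in YAP KD against 5.52 and 7.47 points in CTR KD cells, passed the z test. At Odz3 4 of 10 windows tested were lost in YAP KD cells and 6 of 7 in CTR KD cells, and none differed by the z test. Spen, a transcriptional repressor with RNA-binding domains, had 0 of 6 windows gained in YAP KD and 3 of 6 in CTR KD cells. Its window at 141034876 on chromosome 4 had -0.75 points in YAP KD and 11.9 points in CTR KD cells, and this difference passed the z test. Spen was chosen after its values were seen.

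**Figure D4:**
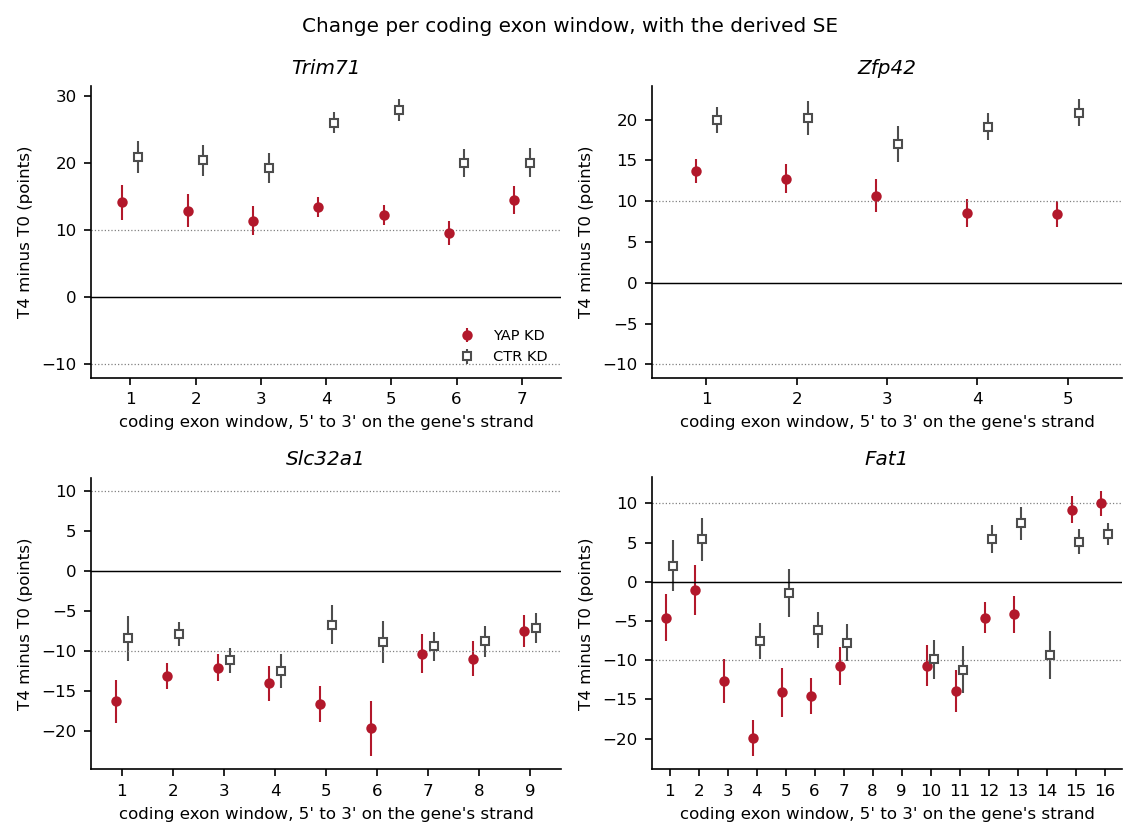
Methylation change between T4 and T0, in percentage points, at each coding exon window of Trim71, Zfp42, Slc32a1 and Fat1 in YAP KD cells (filled circles) and CTR KD cells (open squares), with windows in 5′ to 3′ order on the gene's strand and the derived SE as error bar and dotted lines at 10 points either side of 0. At Trim71 and Zfp42 every YAP KD value lies below the CTR KD value of the same window.

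Several windows with the largest changes were not called different. Eml4 had 22.6 points in YAP KD and 22.01 points in CTR KD cells, a difference of 0.56 points (SE 1.97). Myo10 had 21.6 points in YAP KD and 21.2 points in CTR KD cells, a difference of 0.41 points (SE 3.44). The printed Odz3 window had -21.5 points in both, with an SE of the difference of 3.13 points. H2-Eb1 differed by -7.63 points (SE 2.799), which did not pass after adjustment.

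The knockdown was also compared with its control within each time, on the same libraries as above. At T4 methylation was lower in YAP KD cells at 37 of 3338 exon windows (1.11%), against 0.292% of all windows, and higher at 3 (0.0899%), against 0.028%. The lower windows merged into 30 regions. The largest differences, all YAP KD minus CTR KD, were at Nfatc4 (-21.5 points, SE 2.86, q = 1.69e-10), Mmgt2 (-20.5 points, SE 2.55, q = 8.52e-12), 1700061G19Rik, named Acsbg3 in RefSeq (-17.3 points), Cdc42bpb (-16.8 points) and Myst3 (-15.4 points). Trim71 was lower at 3 windows, by up to 13.9 points, and Tmem151b, Add1, Prickle1, Rpl3, Nrip1 and Zfp42 were lower by 10.1 to 14.6 points. The higher windows were 2 overlapping ones at Nr3c2, the mineralocorticoid receptor (12.3 points, q = 0.0131), and 1 at Pnmal2, of the paraneoplastic antigen family (11.6 points, q = 0.0273).

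At T0 few exon windows differed. Methylation was higher in YAP KD cells at 6 of 3629 windows (0.165%), against 0.0676% of all windows, and lower at 5 (0.138%), against 0.019%. The higher windows were at Tbc1d1, a Rab GTPase-activating protein (12.9 points, q = 0.00168), Ethe1 (12.6 points, q = 0.0451), Nuak2, a kinase related to AMPK (11.6 points, q = 0.0366), Wbp7, the histone H3 lysine 4 methyltransferase gene Kmt2b (11.3 points, q = 0.0366), and at 2 overlapping windows of Tet3, an enzyme that oxidises methylcytosine (10.9 points, q = 0.0316). The lower ones were 2 overlapping windows of Elfn1, a synaptic protein (-13.2 and -11.1 points), and 1 each at Pcdha11 (-13.2 points), 4931440F15Rik, in repeated sequence (-11.9 points), and Zbtb8a, a zinc finger gene (-10.3 points). Zbtb8a was also lower at T4 (-12.1 points, q = 0.00371). With a q threshold of 0.01 only the Tbc1d1 window was left.

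The windows whose changes differed were then placed beside the direct comparisons, which share their libraries and are not a separate test. The difference of the changes nearly equals the T4 knockdown difference minus the T0 one (r = 0.987 in exon windows). Choosing windows with a lower change thus favours values below 0 at T4 and above 0 at T0. A higher change favours the reverse. Of the 74 with a lower change in YAP KD cells, 73 had a value at T4 and all of these were below 0, with a median of -7.44 points, and 46 had q at or below 0.05. At T0 67 of 73 were above 0, with a median of 3.24 points, and 5 had q at or below 0.05. No window of the 74 was a DMR at T0, and 23 were at T4. Of the 10 with a higher change, 9 were above 0 at T4, with a median of 4.94 points, and 4 of the 10 had q at or below 0.05 there. At T0 all 9 with a value were below 0, with a median of -2.05 points. Ethe1 and Tet3 had the other pattern, with -0.75 and 0.66 points at T4 and 12.6 and 10.9 points at T0, though neither difference of changes passed the z test at these windows.

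**Figure D5:**
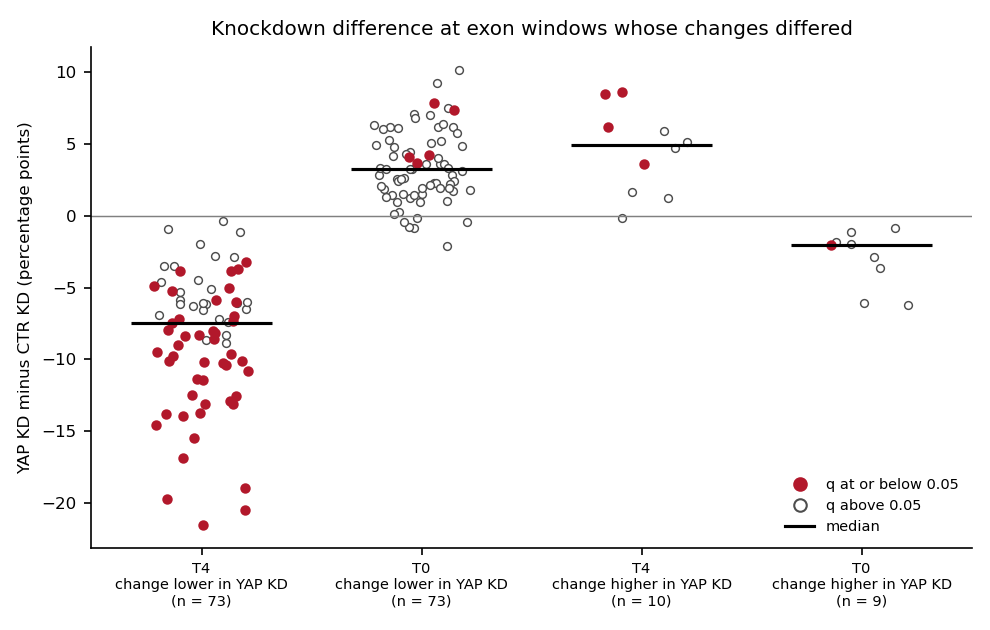
YAP KD minus CTR KD methylation difference, in percentage points, at T4 and at T0 for the coding exon windows whose change between T4 and T0 differed by the z test, lower in YAP KD cells (left pair) or higher (right pair), with filled points at q of 0.05 or below, open points above it and bars at the medians. In the left pair all 73 windows lie below 0 at T4 and 67 of 73 lie above 0 at T0. The windows were selected on a difference of changes that nearly equals T4 minus T0 of these values, which favours such signs.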

How the data were processed

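The authors trimmed the reads (Trim Galore), aligned them to mm9 with Bismark and Bowtie2, left out positions under 6 reads and compared groups with methylKit in overlapping 250 bp windows; whether overdispersion was modelled is not given in the sources used here. They deposited p-values, q-values and differences, which are their own comparisons; no other per-window values were used. Differentiation differences were read as T4 minus T0 after the study's own account of gains and losses, which the values alone cannot settle. Knockdown differences then read as YAP KD minus CTR KD: over 37980 windows in all 4 tables, T4 minus T0 knockdown differences equalled the YAP KD minus CTR KD changes with r = 0.989.

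Windows were annotated from GENCODE M1, and counted as single-copy where their median 31-mer count in the genome was 1. Depth per sample is unknown. Calls used the authors' q-values. Computed here were class, list and structure counts, derived SEs and the z test (Python 3.11.15, pandas 2.3.3, SciPy 1.17.1), whose calculation was tested on simulated data. The members and gene lists were chosen with earlier results of these data known. Named genes were the largest merged regions per comparison, the largest differences of changes past the z test, up to 3 per list and those with most DMR windows. Not all of these are reported here. Alternatives were other q and difference thresholds, merged, non-overlapping, single-copy or wholly coding windows, 2000 bp from a TSS, autosomes and doubled SEs.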

Additional observations from a re-analysis of the deposited data

Results flagged for a closer look

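The change between T4 and T0 differed between YAP KD and CTR KD cells, by the z test on derived SEs, at 18 of the named exon windows, each lower in YAP KD cells. None kept an adjusted p at or below 0.05 with the SEs doubled. The differences of the changes, YAP KD minus CTR KD in points, were -28.3 at Nfatc4, -27.5 at Mmgt2, -21.9 at Cdc42bpb, -21.7 at the first coding exon of Myst3 and -20.3 at Prickle1. They were -18.0 at Dsp, -17.6 at Clk2, -17.4 at Tmem151b, -17.2 at 2510012J08Rik and -16.6 at Add1. At Trim71 the difference was -15.7 points, at Zmym4 -13.4 points, at Zfp42 -12.4 points, at Fat1 -12.4 points and at coding exon 2 of Myst3 -11.5 points. Genes of translation had smaller differences, of -10.2 points at Rpl3 and -7.99 points at Rpl35a, both in repeated sequence, and -8.81 points at Eef2.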

How the results depend on the processing

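Counts of exon windows depended mostly on the minimum difference. With no minimum there were 319 gains and 760 losses in YAP KD cells, 469 gains and 603 losses in CTR KD cells (gain share 43.8%), and 99 windows differing at T4 and 29 at T0. Over 20 points there were 3 gains and 29 losses in YAP KD cells (gain share 9.38%), 26 gains and 6 losses in CTR KD cells (81.2%), 2 windows at T4 and 0 at T0. Several of those 26 gains were overlapping windows of Trim71. In non-overlapping windows the counts were 45 gains and 92 losses in YAP KD cells, 84 gains and 69 losses in CTR KD cells, 20 windows at T4, 6 at T0 and 46 whose changes differed. In windows wholly in CDS they were 36 gains and 88 losses in YAP KD cells, 64 gains and 73 losses in CTR KD cells, 20 windows at T4 and 41 whose changes differed. At q of 0.01 there was 1 window at T0. The z test called 35 exon windows at an adjusted p of 0.01, and 0 with SEs doubled, where 42 had an unadjusted p under 0.05. Other settings moved no count by more than 1.5 times and no gain share out of its interval. Of the named calls, 99 of 144 were under 20 points and 12 of 144 had q over 0.01. No paired analysis was possible because the tables hold no value per sample, and for the same reason no replicate could be left out. The depth behind each window is unknown, so a window that passed no test may lack coverage.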

Other observations

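Only 7 of the 4252 exon windows lay on the X chromosome, and 3 of them, all in Mid1, a ubiquitin ligase of microtubules, passed the z test. The gene was chosen after its values were seen. At the windows starting at 166419751, 166426876 and 166427001 the T4 minus T0 changes were 1.77, -3.95 and -3.02 points in YAP KD cells, against 9.73, 4.95 and 6.16 points in CTR KD cells. The differences of the changes were -7.96, -8.90 and -9.18 points. YAP KD minus CTR KD was -3.69, -5.23 and -5.03 points at T4 and 4.27, 3.67 and 4.12 points at T0, with q at or below 0.05 at all 3 windows at both times and none past 10 points.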
